A study of Mus musculus with 21 samples.

Results

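The potassium channel subunit family of the mouse comprises the genes whose symbol begins with Kcn and the letters of a subunit class (Kcna to Kcnv, with Kcnab and Kcnip). Of 41128 gene rows in the count table, 94 met that rule, after 4 antisense entries with names ending in os were left out. Among them, Kcnq1ot1 is a noncoding RNA antisense to Kcnq1 and is described apart, so that 93 rows code for subunits. They are 77 pore-forming (alpha) subunits and 16 auxiliary ones. The RNA came from striatum, a deep forebrain region in which medium spiny neurons are the main cell type. The labels give all libraries one protocol, in which tissue was taken 3 weeks after an adeno-associated virus was injected there. Set A holds libraries labelled WT, Cas9 and GCas9 (3 each), and set B holds libraries labelled GFP, Cas9 and GCas9 (4 each). Cas9 is the genome editing nuclease and GFP a fluorescent protein. The labels leave GCas9 unexplained. The study is known for a Cas9 joined to a stretch of Geminin, a protein that cells break down in one phase of their cycle. The mice are called wild type, with an age of 3 weeks in one label field and 3 months in another. Whether the WT mice of set A received a virus is not stated apart from that shared protocol, no promoter or guide is named, and every group of set B received a virus. Virus libraries of set A below are those labelled Cas9 or GCas9, whatever the WT mice received. Nothing in the labels says that replicates were separate animals, so p values measure the spread between these libraries.

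Potassium channels let potassium ions leave the cell and so pull the membrane towards rest. Voltage-gated (Kv) channels end action potentials and set firing rates. Inward rectifiers hold the resting potential and, in glia, take up potassium released by neurons, and tandem-pore leak channels carry a steady background current. Calcium- and sodium-activated channels follow the ions that enter during firing. Spiny neurons are known for a very negative resting potential set by inward rectifiers and for A-type currents of Kv4 channels, which delay their firing. Auxiliary subunits form no pore but change the gating and surface number of the channels they join.

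What unites the 77 pore-forming members is the selectivity filter, a loop that lets potassium through and holds back sodium. Its signature is threonine or serine, any residue, glycine, tyrosine or phenylalanine, and glycine. Codons for it were found in frame in 77 of 77 pore-forming members and in 0 of 16 auxiliary members, and in 569 of 21562 coding genes (2.64%) in all. Of the 14 tandem-pore members, 11 held it 2 times, as did 46 of all coding genes. The coding strand of 5 members on which the results below turn or that represent their class is shown over 45 bases, from GRCm38 with GENCODE M21 gene models. Capitals mark the 5 signature codons. The Kcna1 stretch is at chr6:126642213-126642257 (minus strand, exon 1), that of Kcnt1 at chr2:25894352-25894396 (plus strand, exon 11) and that of Kcnh3 at chr15:99232914-99232958 (plus strand, exon 8). That of Kcnj4 is at chr15:79485352-79485396 (minus strand, exon 2). The first Kcnk3 stretch spans exons 1 and 2 on the plus strand of chromosome 5, and the second is at chr5:30622187-30622231 (plus strand, exon 2).
Kcna1: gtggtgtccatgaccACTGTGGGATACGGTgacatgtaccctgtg
Kcnt1: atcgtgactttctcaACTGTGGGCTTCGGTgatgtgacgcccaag
Kcnh3: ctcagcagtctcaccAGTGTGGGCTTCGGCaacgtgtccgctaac
Kcnj4: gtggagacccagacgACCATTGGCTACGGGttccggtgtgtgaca
Kcnk3, first pore: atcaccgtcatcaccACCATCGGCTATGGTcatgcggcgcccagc
Kcnk3, second pore: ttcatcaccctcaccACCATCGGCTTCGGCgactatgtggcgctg

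Sequencing depth differed between the sets. A library of set A held 20.3 M (mega) to 28.0 M recovered gene reads and one of set B 6.09 M to 11.1 M, the 4 Cas9 libraries being the shallowest. The sets were scaled apart, so levels are compared within a set only. The spiny neuron marker Ppp1r1b was present in every library, from 53417 to 68228 normalized counts in set A and from 21660 to 28428 in set B. In both sets 1 library stood apart by its choroid plexus markers: their summed level was 381760 in Cas9 replicate 1 of set A, against 6139 to 20464 in the others, and 21031 in Cas9 replicate 1 of set B, against 3197 to 4745. The oligodendrocyte marker sum was also highest in Cas9 replicate 1 of set A, at 384190 against 198640 to 315100.

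Levels within the striatum were compared per kilobase of exon, as the mean normalized count of a set divided by the gene's exon length. In set A, Kcnip2 led the family at 2783 per kb. It codes for KChIP2, the partner of Kv4 channels. Kcnj4, a strongly rectifying inward rectifier, followed at 2339 per kb. The 2 genes held 11.7% and 9.85% of the family's summed level. Kcnab1 and Kcnab2, the beta subunits of Kv1 channels, were at 1344.5 and 1090.1 per kb, ahead of Kcna1 (1080.7), the sodium-activated channel Kcnt1 (1030) and the astrocyte inward rectifier Kcnj10 (1018.4).

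In set B the order began with Kcnip2 at 930.99 per kb (11.4% of the family), Kcnab1 at 711.41, Kcnj4 at 484.3, the leak channel Kcnk1 at 474.67 and Kcna1 at 435.61. Kcnj10 stood at 137.53. By class, auxiliary subunits made up 28.8% of the family's level in set A and 32.2% in set B, inward rectifiers 18.6% and 11.8%, and Kv1 alpha subunits 9.25% and 12.7%. Calcium-activated channels held 1.43% and 1.52%. The share of the leading gene varied by class. Kcnt1 held 95.2% and 93.4% of the sodium-activated class, Kcnd2 81.9% and 87.1% of Kv4, Kcnk1 55.1% and 61.4% of the tandem-pore class, and Kcnj4 53.0% and 50.2% of the inward rectifiers. Other classes were spread over more genes: Kcna1 held 49.2% and 41.8% of Kv1, Kcnip2 40.7% and 35.3% of the auxiliary subunits, Kcnh3 37.5% and 48.9% of the EAG, ERG and ELK class, and the leading silent subunit 29.1% and 25.3%. At the other end, Kcnk16 had no read, and the 12 members below the level for testing in both sets included Kcnj1, Kcnj15, Kcne1, Kcne3, Kcna7, Kcna10, Kcnv2 and Kcnk7.

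**Figure D1:**
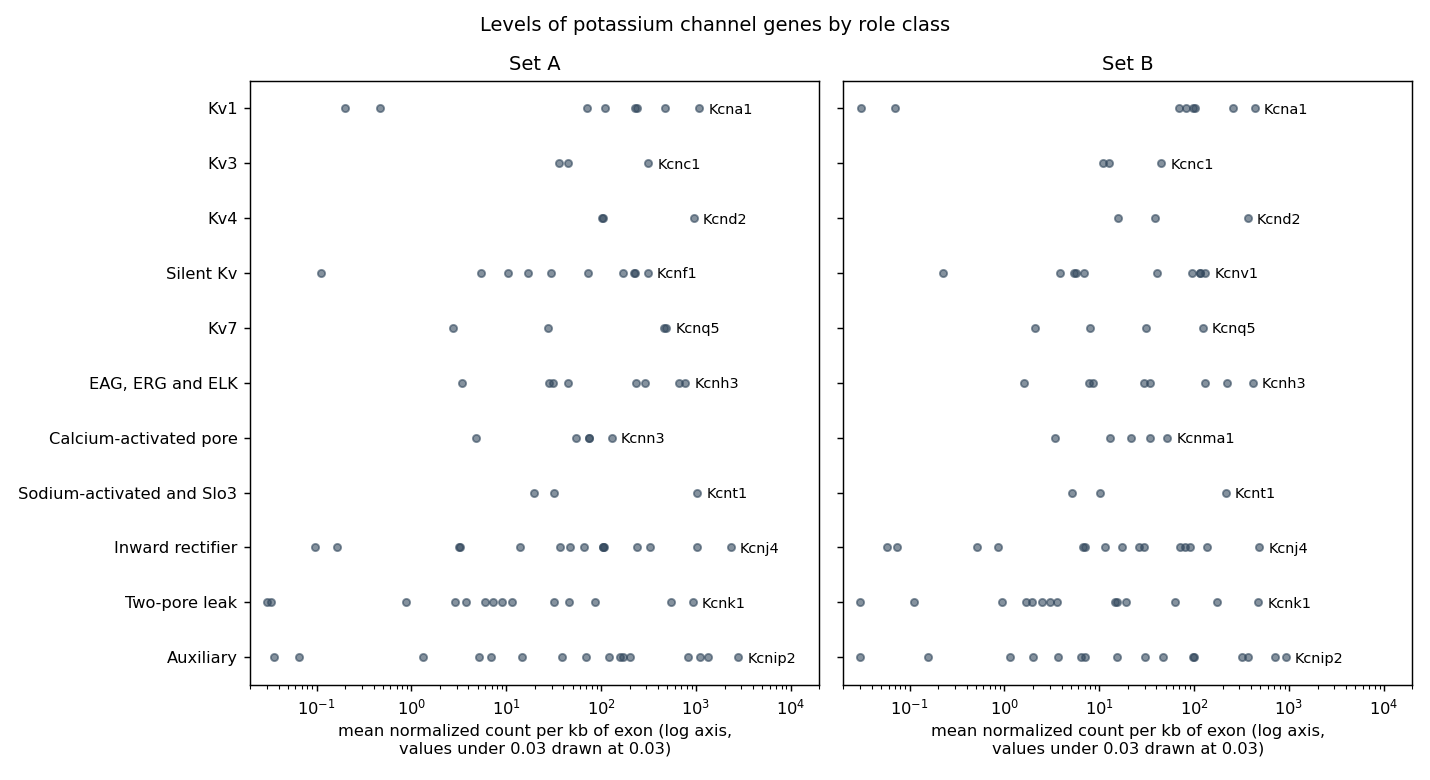
Mean normalized count per kilobase of exon (log axis) of members of 11 classes, with 1 point per gene in set A and 1 in set B and the leading gene of those shown named in each class. Kcnip2 is the highest point of both sets, at 2783 per kb in set A and 930.99 in set B, and values under 0.03 are drawn at 0.03.

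The comparisons ask whether channel transcripts differ after Cas9 or GCas9 virus against the control of the set, and between the viruses. Log2 fold changes come from limma on log2(normalized count + 1), with standard errors of the fit. Testing was limited to genes averaging 10 or more normalized counts, which left 81 members in set A and 74 in set B, 74 of them in both. An adjusted p under 0.05, over all genes, was the threshold. By limma 0 members passed in any comparison, so that differences below are measured differences and not calls. Across all genes 0.00628% passed in Cas9 against WT and 0.00628% in GCas9 against WT, and 0% in every other comparison.

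In set A most members measured lower than in WT, by small amounts. With Cas9, 51 of 81 members were lower and 30 higher (50.9% and 49.1% of all genes), with a median log2 difference of -0.086 against -0.003 over all genes. With GCas9, 62 of 81 were lower and 19 higher (50.1% and 49.9% of all genes), with a median of -0.12 against 0.000. Without Cas9 replicate 1 the first median was -0.040 (45 of 78 lower), without WT replicate 2 it was -0.042 (47 of 81), and with array weights it was -0.057. At an unadjusted p under 0.05 limma gave 4 members higher and 5 lower with Cas9 (6.17% and 5.65% of all genes), and 4 higher and 9 lower with GCas9 (4.44% and 2.33%). The virus and WT libraries did not overlap in 7 higher and 11 lower members with Cas9 (10.7% and 8.86% of all genes), and in 7 higher and 18 lower members with GCas9 (9.16% and 7.02%). By edgeR 0 members were called in either comparison (0% and 0.00628% of all genes), with 10 and 14 at an unadjusted p under 0.05 (12.2% and 8.6% of all genes). DESeq2 called 1 in each, Kcnj10 with Cas9 and Kcnj11 with GCas9 (0.734% and 1.38% of all genes), with 9 and 13 at an unadjusted p under 0.05 (13.2% and 8.83%). In bulk tissue fewer cells of a type and less RNA per cell cannot be told apart. Pan-neuronal markers were lower in 8 of 9 (median -0.15) with Cas9 and in 9 of 9 (median -0.10) with GCas9, and spiny neuron markers in 12 of 13 and 13 of 13. Their part in the members' medians was not tested.

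**Figure D2:**
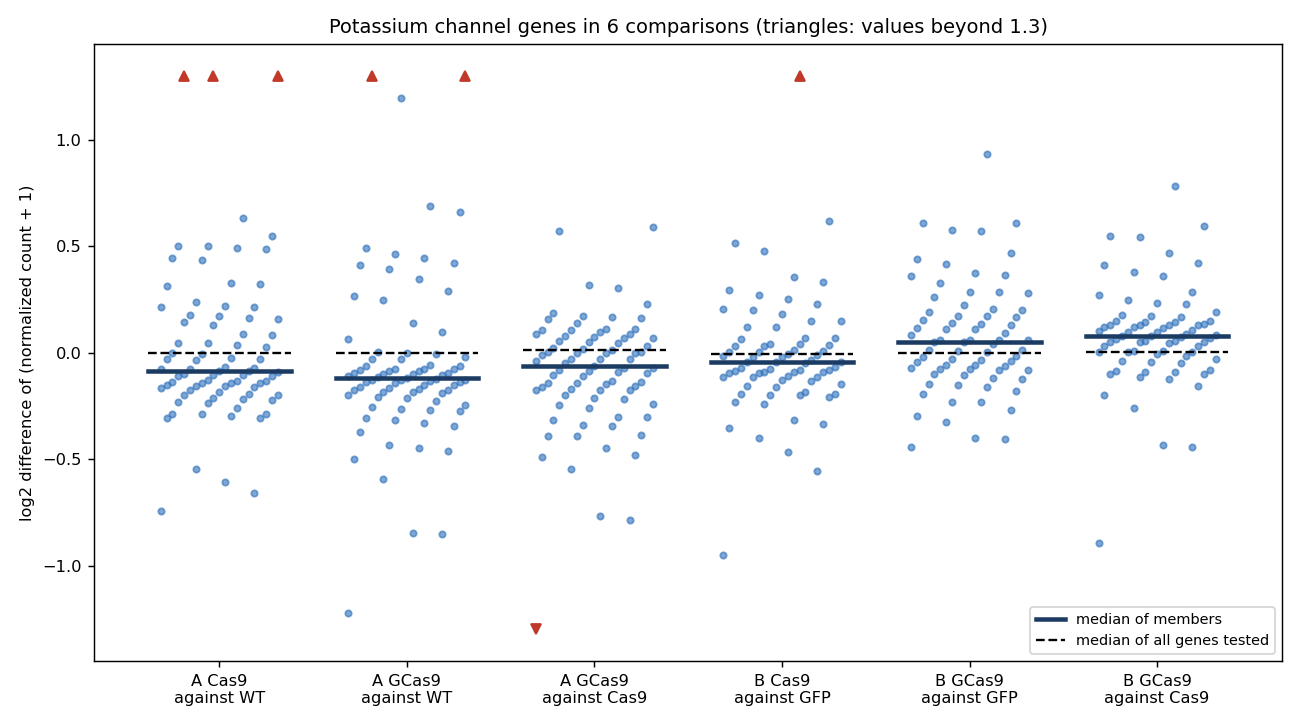
Log2 fold changes of all tested members (1 point per gene) in the 6 comparisons. Solid lines mark the median of the members and dashed lines that of all genes, and triangles stand for values beyond the axis limits. The members' median is lowest for GCas9 against WT in set A (-0.12) and highest for GCas9 against Cas9 in set B (0.079).

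Among inward rectifiers, Kcnj11 (chromosome 7, 46093953 to 46100764, minus strand, ENSMUSG00000096146.2) had the smallest p of any member in set A, for GCas9 against WT. It codes for the pore of ATP-sensitive channels, which open when cellular energy falls. Its normalized counts were 422, 498 and 455 in WT, 355, 376 and 393 with Cas9, and 328, 341 and 335 with GCas9. All 6 virus libraries lay below all 3 WT libraries, and the GCas9 libraries lay below the Cas9 libraries. The log2 fold change was -0.29 ± 0.08 for Cas9 against WT and -0.45 ± 0.08 for GCas9 against WT (limma adjusted p = 0.41 and 0.495), and -0.16 ± 0.08 for GCas9 against Cas9. In set B it was low, at 20.0 to 25.3 in GFP, 22.6 to 33.0 with Cas9 and 22.3 to 25.8 with GCas9, and the groups overlapped. Those groups held 100, 86 and 115 reads of it in all. Abcc8, the sulfonylurea receptor that completes the neuronal form of this channel, was at 680, 640 and 656 in WT and at 545, 585 and 585 with Cas9 (-0.20 ± 0.09), and with GCas9 at 627, 602 and 506.

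The glial and vascular inward rectifiers measured in the other direction. Kcnj10 (chromosome 1, 172341210 to 172374085, plus strand) carries the main potassium conductance of astrocytes. It was at 4189, 4849 and 5207 in WT, at 6412, 5961 and 7658 with Cas9, and at 4335, 5842 and 5106 with GCas9. The Cas9 libraries were the 3 highest of set A, while WT and GCas9 overlapped. Cas9 was higher than WT by 0.49 ± 0.13 (limma adjusted p = 0.41), and GCas9 against Cas9 was at -0.39 ± 0.13. Astrocyte markers were higher in 9 of 9 with Cas9 (median 0.19), with a summed level of 110710 to 117560 in WT, 126580 to 143060 with Cas9 and 125020 to 129450 with GCas9. Their part in the Kcnj10 difference was not tested. Without Cas9 replicate 1 the differences were 0.51 and -0.42. Over all alternatives run they ranged from 0.39 to 0.69 and from -0.67 to -0.28.

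Kcnj16, which joins Kcnj10 in mixed channels of astrocytes, was at 149, 167 and 172 in WT, 194, 197 and 215 with Cas9 and 179, 182 and 222 with GCas9. Both virus groups lay above WT, by 0.31 ± 0.12 and 0.25 ± 0.12. The second value was 0.15 without GCas9 replicate 3, and with quantile normalization the values were 0.17 and 0.11. Kcnj8, the ATP-sensitive channel pore of pericytes, was at 74.1, 89.7 and 62.3 in WT, 121, 115 and 94.1 with Cas9 and 97.8, 104 and 97.3 with GCas9. It too lay above WT in all 6 virus libraries (0.55 ± 0.17 and 0.41 ± 0.17, or 0.34 and 0.17 with quantile normalization). Abcc9, the receptor that Kcnj8 pairs with, was at 271, 318 and 383 in WT, 447, 390 and 436 with Cas9 and 286, 325 and 355 with GCas9. It differed by 0.40 ± 0.14 between Cas9 and WT and by -0.40 ± 0.14 between GCas9 and Cas9. Mural cell markers were higher in 8 of 8 with Cas9 (median 0.21), and their sums were 5581 to 6139 in WT, 6130 to 7880 with Cas9 and 5946 to 6050 with GCas9. Abcc9 is 1 of that list, and the list's part in these values was not tested. In set B the groups overlapped for Kcnj8 (54.7 to 80.1 in GFP, 68.8 to 85.8 with Cas9, 60.2 to 93.7 with GCas9) and for Kcnj16 (90.1 to 112, 75.1 to 113 and 92.6 to 114).

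Kcnj14, an inward rectifier of low level, was at 20.7 to 34.6 in WT, 37.5 to 48.6 with Cas9 and 36.2 to 48.6 with GCas9, with 88, 127 and 126 reads per group. It lay above WT in all virus libraries of set A, by 0.63 ± 0.25 and 0.66 ± 0.25 (0.40 and 0.39 with quantile normalization). Kcnj6, a G protein-gated subunit, was at 28.9, 41.4 and 31.6 in WT, 29.1, 20.7 and 19.2 with Cas9, and 18.2, 19.4 and 17.0 with GCas9. All GCas9 libraries were below WT, at a log2 difference of -0.85 ± 0.26, on 52 and 110 reads. Kcnj4, the leading inward rectifier, was at 5363, 5636 and 5319 in WT, 4254, 5155 and 5082 with Cas9 and 4914, 5314 and 4265 with GCas9. Its GCas9 and WT libraries did not overlap, by a gap of a few counts, and without GCas9 replicate 3 its difference from WT was -0.090. In set B, Kcnj4 was at 1067 to 1186 in GFP, 751 to 1133 with Cas9 and 898 to 1209 with GCas9, with overlap. Kcnj2, another strong rectifier of the same subfamily, was at 1753 to 1963 in WT, 1533 to 1927 with Cas9 and 1712 to 1935 with GCas9, and at 442 to 607, 406 to 506 and 475 to 542 in the groups of set B. Its groups overlapped in both sets.

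Kv1 channels act near the spike threshold. Kcna5 (chromosome 6, 126532551 to 126535412, minus strand) had the smallest p of the members for Cas9 against WT and for GCas9 against Cas9 in set A. It was at 848, 689 and 715 in WT, 364, 626 and 464 with Cas9 and 740, 649 and 724 with GCas9. The Cas9 libraries were the 3 lowest, at -0.66 ± 0.17 against WT, and GCas9 was higher than Cas9 by 0.57 ± 0.17. Without Cas9 replicate 1, the lowest library, these were -0.47 and 0.38. In set B it was at 285, 256, 285 and 278 in GFP, 151, 202, 263 and 269 with Cas9 and 238, 242, 191 and 153 with GCas9. All GCas9 libraries lay below GFP (-0.44 ± 0.18), whereas the Cas9 libraries overlapped GFP (-0.35 ± 0.18, or -0.18 without Cas9 replicate 1). The difference between GCas9 and Cas9 was higher in set A than in set B by 0.66 ± 0.27 (limma adjusted p = 0.992). Of the more abundant Kv1 members, Kcna1 was at 5376, 5594 and 5088 in WT and at 4712, 5204 and 4762 with GCas9, so that these groups overlapped. Kcna2 was at 1468, 1623 and 1104 in WT and at 934, 1367 and 1002 with GCas9, again with overlap. Kcna4, which inactivates quickly, was at 2400, 2437 and 2448 in WT, 1615, 2403 and 2256 with Cas9 and 2127, 2482 and 2304 with GCas9. Its low value is that of Cas9 replicate 1.

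The Kv4 channels and their partners carry the A-type current. Kcnd2, their main pore subunit, was at 5149, 5376 and 4657 in WT, 3974, 5190 and 5219 with Cas9 and 4772, 5015 and 4380 with GCas9. Kcnip2 was at 9926, 10293 and 10640 in WT, 8398, 9583 and 10925 with Cas9 and 9791, 9744 and 7763 with GCas9. The groups of Kcnd2 overlapped, whereas the GCas9 libraries of Kcnip2 lay below WT. Its difference there was -0.074 without GCas9 replicate 3. Kcnd1, a minor Kv4 subunit, was at 589, 626 and 571 in WT and at 503, 528 and 526 with Cas9 (-0.20 ± 0.07), with no overlap. In set B, Kcnip2 was at 3008 to 3419 in GFP, 2607 to 4105 with Cas9 and 3067 to 3435 with GCas9, and the groups overlapped.

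Kv3 channels allow fast firing and are typical of the fast-spiking interneurons. All 4 tested members were lower with GCas9 than in WT in set A (median -0.29), where 50.1% of all genes were lower. The GCas9 libraries of 3 lay below WT with no overlap, as did those of 7.02% of all genes. Kcnc1 was at 2954 to 3322 in WT and 2739 to 2939 with GCas9 (-0.14 ± 0.06). Kcnc2 was at 262, 323 and 316 in WT and at 218, 172 and 252 with GCas9. In set B the 4 Kv3 members were all higher with GCas9 than with GFP (median 0.20), where 49.1% of all genes were higher. There Kcnc2 was at 43.7 to 84.6 in GFP and 73.2 to 117 with GCas9, so the groups overlapped. The difference between GCas9 and Cas9 was lower in set A than in set B for all 4 (median -0.48) and for 49.4% of all genes. None of these 4 differences passed the threshold. Of 9 interneuron markers, 7 were lower with GCas9 than in WT in set A (median -0.13) and 6 higher with GCas9 than with GFP in set B (median 0.06), and their part in the Kv3 values was not tested.

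The EAG, ERG and ELK channels (Kcnh) shape slow repolarization. In set A 7 of 8 were lower with Cas9 (median -0.14) and 8 of 8 with GCas9 (median -0.20), where 50.9% and 50.1% of all genes were lower. Kcnh3, the most abundant, was at 5082, 4578 and 4860 in WT, 4024, 4324 and 4741 with Cas9 and 4473, 4262 and 3715 with GCas9. All GCas9 libraries were below WT, and the difference was -0.15 without GCas9 replicate 3. Its exons overlap those of Mcrs1 on the other strand. Kcnh4, an ELK channel too, was at 2982, 2758 and 2617 in WT, 2461, 2491 and 2675 with Cas9 and 2646, 2602 and 2234 with GCas9, with overlap. In set B, Kcnh3 was at 2355 to 2527 in GFP and 2247 to 2728 with GCas9, and its Cas9 libraries ran from 1687 to 2992.

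Kcnh6 (chromosome 11, 106008124 to 106034549, plus strand), an ERG channel, was lower with Cas9 than in the control in both sets. It was at 109, 120 and 122 in WT, 88.4, 103 and 94.1 with Cas9 and 93.0, 91.8 and 74.6 with GCas9. In set B it was at 41.0, 47.0, 32.4 and 42.8 in GFP, 18.1, 16.7, 29.5 and 19.6 with Cas9 and 29.9, 33.4, 31.3 and 27.1 with GCas9. The Cas9 libraries did not overlap the control in either set, whereas the GCas9 libraries overlapped both other groups of set B. Cas9 differed from WT by -0.30 ± 0.14 and from GFP by -0.95 ± 0.22 (limma adjusted p = 0.68 for the latter), on 175 reads in GFP and 69 with Cas9. GCas9 differed from WT by -0.43 ± 0.14, from GFP by -0.40 ± 0.22 and from Cas9 in set B by 0.55 ± 0.22. With quantile normalization the differences from WT were -0.48 and -0.66.

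Kcnh7, the third ERG gene, was at 84.2, 82.9, 85.8 and 106 in GFP, 151, 132, 114 and 118 with Cas9 and 124, 107, 135 and 177 with GCas9. The Cas9 and the GCas9 libraries all lay above GFP, by 0.52 ± 0.16 and 0.57 ± 0.16 (limma adjusted p = 0.59 for the second). The gap between GFP replicate 4 and GCas9 replicate 2 was less than 1 count. In set A its groups overlapped (432 to 554 in WT, 409 to 604 with Cas9, 353 to 522 with GCas9). Its exons overlap those of Gca on the other strand.

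**Figure D3:**
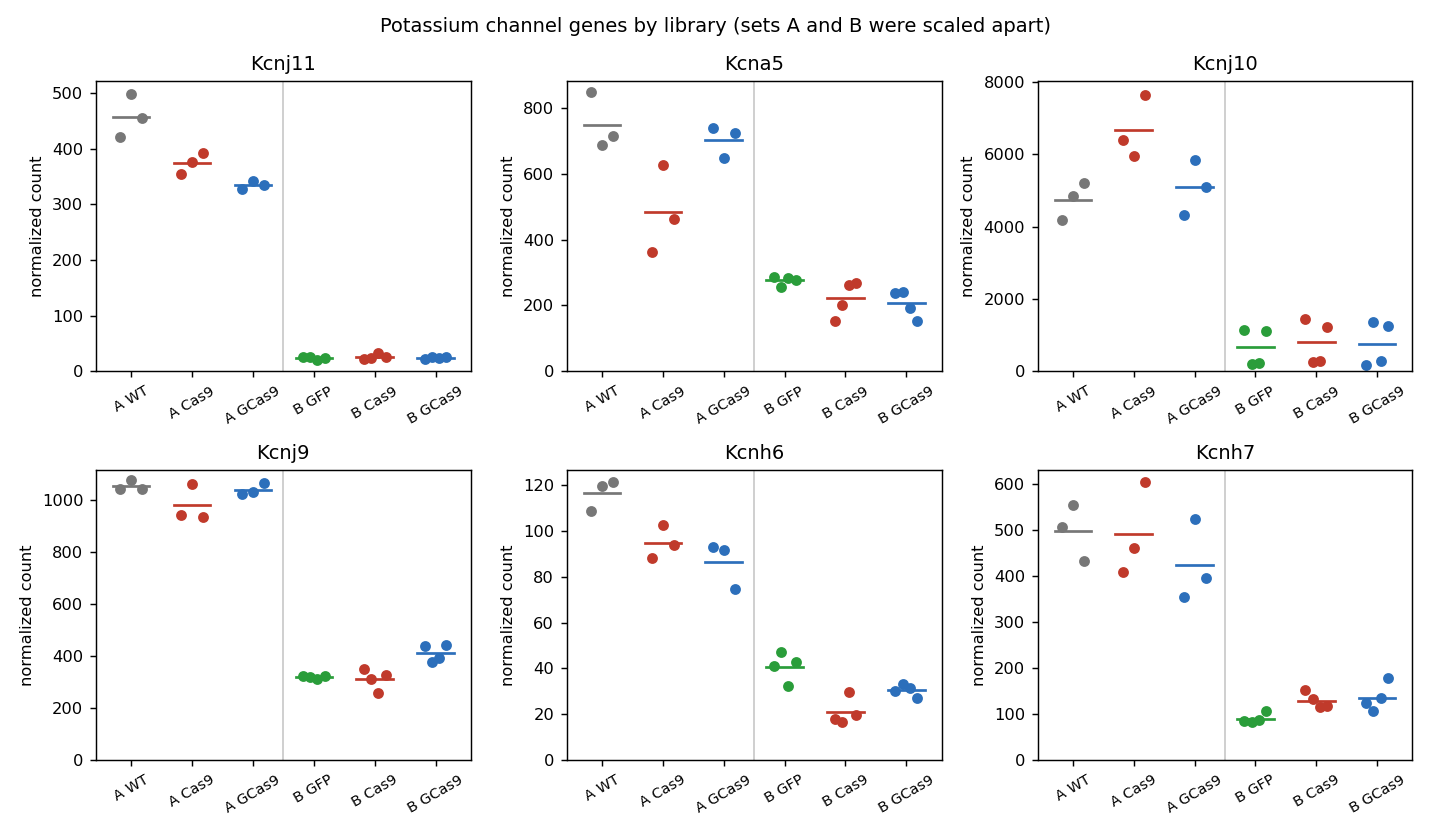
Normalized counts of Kcnj11, Kcna5, Kcnj10, Kcnj9, Kcnh6 and Kcnh7 in each of the 21 libraries by group, with lines at group means. Kcnj11 runs from 422 to 498 in WT to 328 to 341 with GCas9 in set A, and Kcnj10 in set B divides into libraries at 170 to 271 and at 1112 to 1452 in each group.

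Kv7 channels carry the M current that acetylcholine shuts. Kcnq5 was at 3969, 4115 and 4038 in WT, 2685, 4018 and 3235 with Cas9 and 3894, 3870 and 3738 with GCas9. Its Cas9 value overlapped WT (-0.31 ± 0.12) and was -0.16 without Cas9 replicate 1. Kcnq3 was at 5799 to 7907 in WT, 6222 to 7554 with Cas9 and 5569 to 7072 with GCas9. It overlapped between WT and the viruses. The groups of set B overlapped too, at 353 to 489 in GFP, 421 to 539 with Cas9 and 383 to 589 with GCas9. The sodium-activated Kcnt1 was at 9757 to 10537 in WT and 8156 to 10210 with GCas9, with overlap.

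Among calcium-activated channels, the large-conductance pore Kcnma1 was at 982 to 1668 in WT, 977 to 1464 with Cas9 and 899 to 1480 with GCas9, and the small-conductance Kcnn3 at 1394 to 1476, 1011 to 1487 and 1248 to 1544. The groups of both overlapped. The beta subunit Kcnmb1, known from smooth muscle, was at 52.0, 48.3 and 50.6 with Cas9 and 91.1, 64.8 and 74.6 with GCas9 in set A (0.59 ± 0.20, apart). Kcnn1, a small-conductance channel, was at 255, 256 and 323 with Cas9 and 235, 225 and 213 with GCas9 (-0.30 ± 0.12, or -0.19 without Cas9 replicate 3). Kcnn4, the intermediate-conductance channel of microglia and T cells, was at 8.7, 4.3 and 8.9 in WT, 35.4, 11.8 and 23.3 with Cas9 and 24.9, 7.6 and 95.0 with GCas9. All 3 Cas9 libraries were above WT (1.49 ± 0.80), on 69 and 23 reads. The GCas9 value of 1.80 ± 0.80 was 0.90 without replicate 3. Microglia markers were higher in 12 of 12 in both comparisons (medians 0.70 and 0.61), and T and B cell markers in 10 of 11 (medians 2.41 and 2.51). In GCas9 replicate 3, the library highest in Kcnn4, the list medians over the WT mean were 1.23 and 5.07. The part of either list was not tested. In set B, Kcnn4 was at 3.6 to 28.6 in GFP and at 10.2 to 22.2 with Cas9, with overlap.

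Of the tandem-pore class, 8 of 10 tested members were higher and 2 lower with Cas9 than in WT in set A (49.1% and 50.9% of all genes), with a median of 0.27. By library, the class median over the WT mean was 0.345 in Cas9 replicate 1 and 0.269 in replicate 3. In replicate 2 it was -0.014, with 5 of 10 members below the WT mean. The calcium-activated class had 3 of 5 higher (median 0.14), and the difference between classes was not tested. With GCas9 against WT, 5 tandem-pore members were higher and 5 lower (49.9% and 50.1% of all genes), with a median of 0.14. In set B, 4 of 9 were higher and 5 lower than GFP with Cas9 (48.7% and 51.3% of all genes, median -0.013). With GCas9 the counts were the same (49.1% and 50.9% of all genes, median -0.059). Kcnk6, a lysosomal leak channel, was at 100, 103 and 103 in WT, 122, 119 and 185 with Cas9 and 109, 103 and 248 with GCas9, and its Cas9 difference was 0.24 without Cas9 replicate 3. Kcnk10, a stretch-sensitive channel, ran from 42.2 to 46.2 in WT and from 57.3 to 70.1 with GCas9 (0.49 ± 0.19, or 0.22 with quantile normalization). In set B, Kcnk1 was at 897, 886, 897 and 1099 in GFP and at 1034, 1135, 1148 and 1285 with GCas9 (0.29 ± 0.10, overlapping at GFP replicate 4). Kcnk3, an acid-sensitive channel, was at 89.5, 82.9, 72.4 and 101 in GFP and at 74.5, 51.4, 62.6 and 73.7 with Cas9 (-0.40 ± 0.18), with overlap. Among the silent subunits, which alter Kv2 channels, Kcng1 was at 1024, 1154 and 1144 in WT and at 870, 966 and 811 with GCas9 (-0.33 ± 0.09), with no overlap. Kcnv1, the silent subunit of highest level in set B, was at 572 to 650 in GFP, 499 to 698 with Cas9 and 532 to 633 with GCas9, with overlap.

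In set B the members lay close to GFP. With Cas9, 45 of 74 were lower and 29 higher (51.3% and 48.7% of all genes; median -0.044 against -0.005). That median ran from -0.077 to -0.0056 when single libraries were left out, at -0.0056 without Cas9 replicate 3 (37 of 74 lower), at -0.077 without Cas9 replicate 1 (52 of 73) or replicate 2, at -0.076 without GFP replicate 3, at -0.067 without GFP replicate 4 and at -0.028 with DESeq2. With GCas9, 31 were lower and 43 higher (50.9% and 49.1% of all genes; median 0.051 against -0.003, 0.026 without GCas9 replicate 1 and 0.027 for members with a mean of at least 50). By limma, 2 members were higher and 2 lower with Cas9 at an unadjusted p under 0.05 (3.23% and 3.01% of all genes), and 6 higher and 1 lower with GCas9 (3.71% and 2.76%). Libraries did not overlap in 1 higher and 1 lower member with Cas9 (2.63% and 2.05% of all genes) and in 5 higher and 1 lower with GCas9 (2.5% and 1.66%). edgeR called 0 members in both (0% of all genes), with 5 at an unadjusted p under 0.05 for Cas9 and 8 for GCas9 (6.11% and 6.88% of all genes). DESeq2 also called 0 (0.0649% and 0.266% of all genes), with 3 and 8 at an unadjusted p under 0.05 (5.41% and 6.44%). Cortical neuron markers were higher in 7 of 7 with GCas9 than with GFP (median 1.67), with sums of 324 to 531 in GFP, 400 to 496 with Cas9 and 824, 737, 535 and 1465 with GCas9. Their part in the members' values was not tested.

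Kcnj9 (chromosome 1, 172320501 to 172329318, minus strand), a G protein-gated subunit that opens with inhibitory receptors, had the smallest p of the members for GCas9 against Cas9 in set B and over both sets. In set B it was at 321, 319, 313 and 322 in GFP, 348, 311, 258 and 325 with Cas9 and 438, 378, 392 and 440 with GCas9. The GCas9 libraries were the 4 highest. GCas9 was higher than GFP by 0.37 ± 0.09 and higher than Cas9 by 0.41 ± 0.09 (limma adjusted p = 0.48 and 0.995). In set A it was at 1041, 1074 and 1039 in WT, 940, 1061 and 933 with Cas9 and 1022, 1029 and 1063 with GCas9, where the latter groups overlapped (0.09 ± 0.06). The mean over both sets was 0.25 ± 0.06 (limma adjusted p = 1), and the difference between the sets was -0.32 ± 0.12. Its exons overlap those of the antisense gene model Gm36937. Its partner subunit Kcnj3 was at 47.4, 30.6, 70.8 and 54.0 with Cas9 and 75.2, 73.2, 66.6 and 56.5 with GCas9 in set B (0.47 ± 0.21, or 0.25 without Cas9 replicate 2), and its difference between the sets was -0.73 ± 0.28.

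For GCas9 against Cas9 as a whole, the family leaned in opposite directions in the sets. In set A, 50 of 81 members were lower and 31 higher (45.7% and 54.3% of all genes; median -0.065 against 0.012). In set B, 20 of 74 were lower and 54 higher (49.4% and 50.6% of all genes; median 0.079 against 0.002). The second median was 0.024 without Cas9 replicate 3 of set B, with 29 lower. Of the 74 members tested in both sets, which share no library, 21 were higher in both, 12 lower in both, 33 lower in set A and higher in set B, and 8 the reverse. The share of one sign in both sets was 44.6%, against 49.2% of 14486 genes.

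The limma counts at an unadjusted p under 0.05 were 2 higher and 4 lower in set A (2.38% and 3.07% of all genes) and 4 higher and 0 lower in set B (2.27% and 1.57%). Libraries were apart in 2 higher and 5 lower members of set A (4.4% and 4.45% of all genes) and in 2 higher and 0 lower of set B (1.23% and 0.797%). edgeR called 0 members in either set (0% of all genes), with 9 and 4 at an unadjusted p under 0.05 (5.81% and 3.84% of all genes). DESeq2 also called 0 (0.0316% and 0% of all genes), with 7 and 2 at an unadjusted p under 0.05 (5.63% and 3.17%). For the mean over both sets, 44 of 79 members were higher and 35 lower (52% and 48% of all genes). By limma 1 higher and 0 lower passed an unadjusted p of 0.05 (1.94% and 1.78%), by edgeR 3 (4.09%) and by DESeq2 1 (4.19%), with 0 members and 0% of all genes past the threshold by each tool. For the difference between the sets, 58 of 79 were lower in set A (49.4% of all genes; median -0.15 against 0.003). There 2 were higher and 5 lower at an unadjusted p under 0.05 (2.05% and 2.29%), with 6 by edgeR (4.75%) and 8 by DESeq2 (5.19%). The higher ones by limma were Kcnk10 and Kcna5. The lower ones were Kcnj3, Kcnh6, Kcna2, Kcnj9 and Kcnj6, the last under the limit for testing in set B alone. None passed (limma adjusted p = 0.992 for each), and edgeR and DESeq2 called 0 (0% of all genes). In set A oligodendrocyte markers were lower in 9 of 9 with GCas9 (median -0.50), and in set B cortical markers were higher in 7 of 7 (median 1.91), whose part was not tested.

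In set B, Kcnj10 fell into separate levels within every group. It was at 1141, 198, 228 and 1112 in GFP, at 1452, 253, 270 and 1222 with Cas9 and at 170, 1356, 271 and 1250 with GCas9. Thus 6 libraries, 2 per group, lay between 170 and 271 and the other 6 between 1112 and 1452, with none between. The within-group SD was 1.43 log2 units, the largest of 24 members with a mean of at least 500 in set B, whose median was 0.164. In set A the 9 libraries ran from 4189 to 7658 without such a gap. Other astrocyte genes did not divide in this way: Aqp4, the water channel that lies beside Kcnj10 in astrocyte endfeet, was at 941 to 1551 and the glutamate transporter Slc1a3 at 5445 to 6318 in the same libraries. Kcnj16 was at 75.1 to 114. No fold change of Kcnj10 between the groups of set B is given, since it would rest on which libraries fell at which level.

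**Figure D4:**
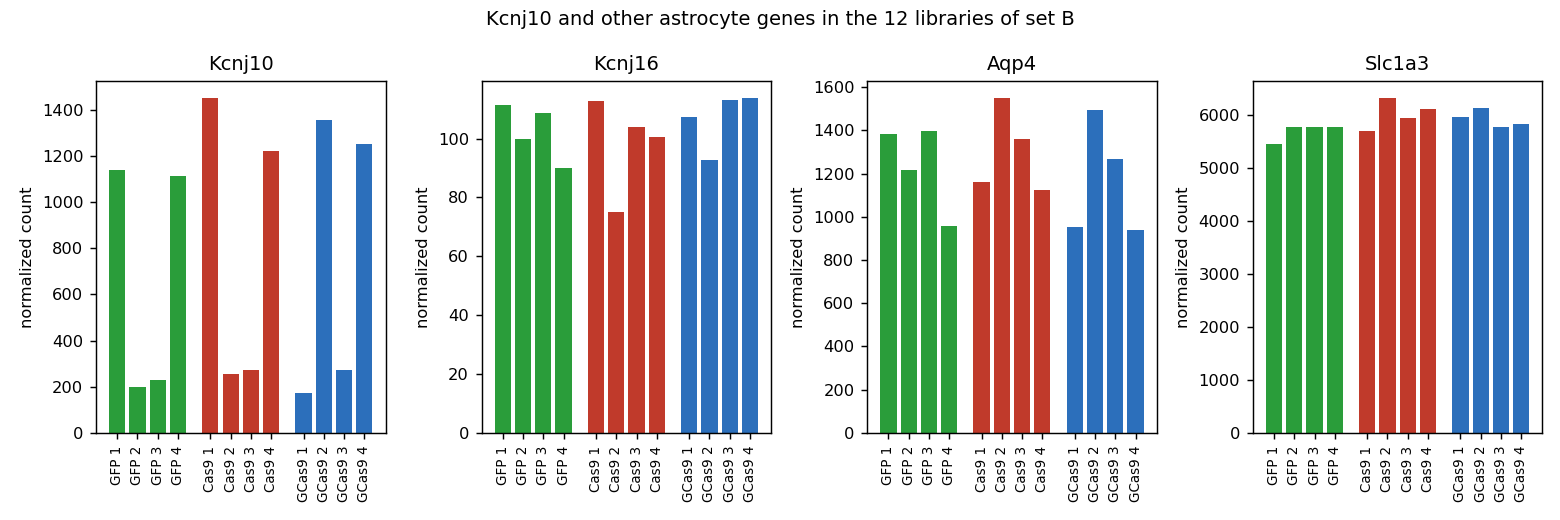
Normalized counts of Kcnj10, Kcnj16, Aqp4 and Slc1a3 in the 12 libraries of set B, with 1 bar per library and the groups side by side. Kcnj10 is at 170 to 271 in 6 libraries and at 1112 to 1452 in the other 6, while Aqp4 stays between 941 and 1551.

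Kcnj13 (chromosome 1, 87386363 to 87394729, minus strand, with exons that overlap those of Gigyf2 on the other strand) and Kcne2 (chromosome 16, 92292389 to 92298129, plus strand) are channel subunits of the choroid plexus, the tissue that makes cerebrospinal fluid. In set A, Kcnj13 was at 3.9, 0.9 and 4.9 in WT, 1154, 0.0 and 13.1 with Cas9 and 39.3, 5.4 and 11.3 with GCas9. Kcne2 was at 5.8, 0.9 and 2.0 in WT, 1036, 3.0 and 8.1 with Cas9 and 31.6, 1.1 and 5.7 with GCas9. In set B, Cas9 replicate 1 held 193 of Kcnj13 and 61.0 of Kcne2, where the other 11 libraries held at most 12.9 and 3.8. Ttr, the transport protein that defines choroid epithelium, was at 280180 in Cas9 replicate 1 and 10462 in GCas9 replicate 1 of set A, and at 272 to 413 in WT. It was at 9771 in Cas9 replicate 1 of set B and at most 495 in the others. Each of the libraries high in these 2 members was thus high in Ttr, and no difference between groups is given for them.

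**Figure D5:**
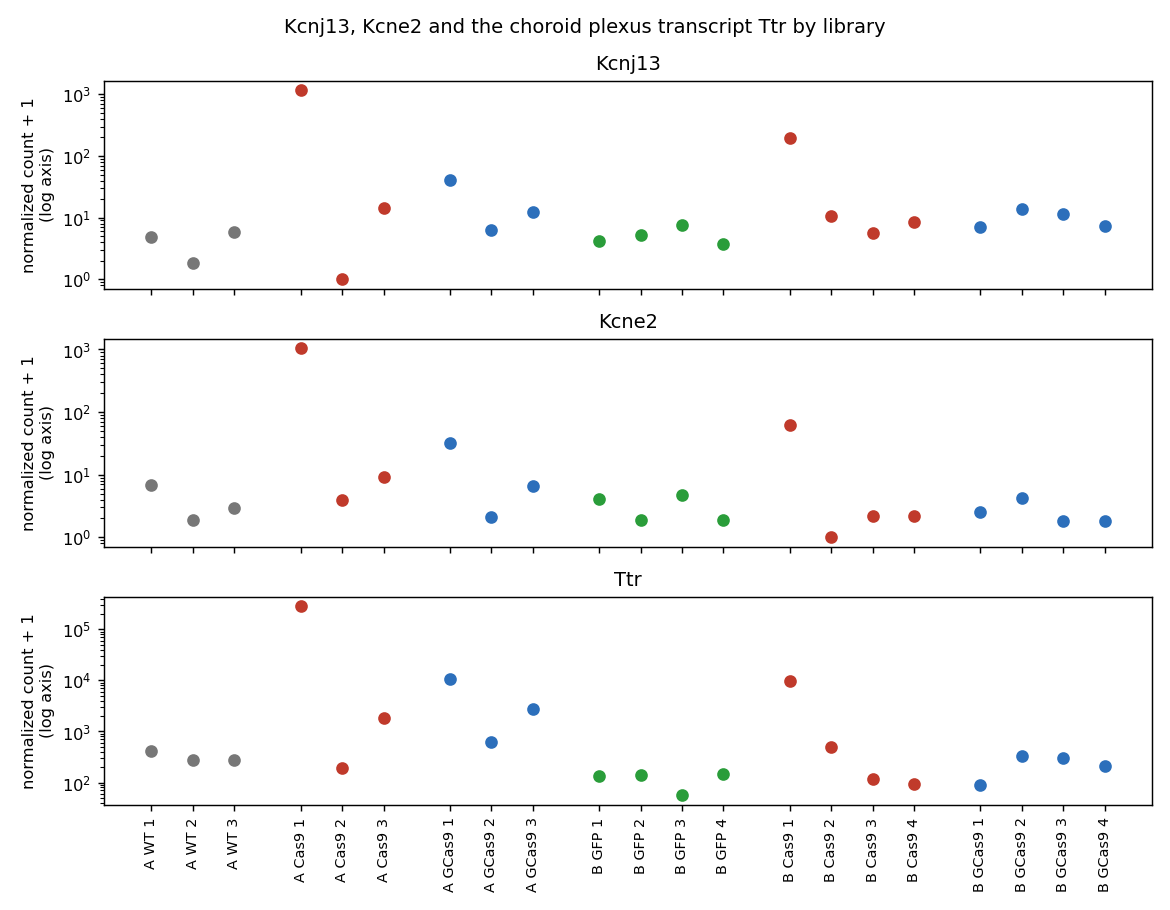
Normalized count + 1 (log axis) of Kcnj13, Kcne2 and Ttr in each library by group. Cas9 replicate 1 of set A stands highest for all 3 genes (1154, 1036 and 280180 normalized counts), and Cas9 replicate 1 is the highest of set B.

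Kcne1l, an X-linked auxiliary subunit (142304752 to 142306294, minus strand), was at 215, 222 and 201 in WT, 244, 232 and 276 with Cas9 and 270, 232 and 313 with GCas9. All virus libraries were above WT, by 0.35 ± 0.12 for GCas9. In set B it was at 113, 93.2, 140 and 125 in GFP, 134, 174, 216 and 204 with Cas9 and 154, 210, 170 and 107 with GCas9, and Cas9 was higher than GFP by 0.62 ± 0.20 with overlap. Xist, the RNA of the inactive X chromosome, was above 100 in 1 of 3 libraries in each group of set A. In set B it was above 100 in 2 of 4 GFP, 3 of 4 Cas9 and 3 of 4 GCas9 libraries.

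Partner proteins were read from a list of 35 genes for receptors, scaffolds and modifiers of these channels, of which 32 were tested. In set A 26 of 32 were lower with Cas9 and 29 of 32 with GCas9 (medians -0.083 and -0.099; 50.9% and 50.1% of all genes were lower), and in set B 20 and 16 of 32 (medians -0.064 and 0.015; 51.3% and 50.9% of all genes). For GCas9 against Cas9, 13 were lower in set A and 7 in set B (45.7% and 49.4% of all genes). By limma 0 passed the threshold. At an unadjusted p under 0.05 there were 1 higher and 6 lower for Cas9 against WT (6.17% and 5.65% of all genes), and at most 3 in any other comparison within a set. Kctd12, which slows the response of GABA-B receptors to which Kcnj9 channels couple, differed by -0.44 ± 0.11 between Cas9 and GFP in set B. That was the lowest of the 32 values there. Among 20 potassium pumps, transporters and their kinases, 10 were lower with Cas9 and 10 with GCas9 against WT (medians 0.033 and -0.007), and 0 passed the threshold by limma (4 higher and 4 lower at an unadjusted p under 0.05 with Cas9, where 6.17% and 5.65% of all genes were, and 0 with GCas9, where 4.44% and 2.33% were). Of these, Atp1b3, a subunit of the sodium pump, was higher with Cas9 in both sets (0.36 ± 0.10 and 0.19 ± 0.08). Kctd12 and Atp1b3 were singled out from their lists with no rule set beforehand.

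Kcnq1ot1, the noncoding RNA of the imprinted Kcnq1 region (chromosome 7, 143203458 to 143296549, minus strand), was at 529, 513 and 357 in WT, 356, 501 and 483 with Cas9 and 365, 582 and 338 with GCas9. In set B it was at 458 to 584 in GFP, 535 to 700 with Cas9 and 468 to 649 with GCas9. The groups overlapped in both sets. Its log2 differences from the control were -0.06 ± 0.24, -0.14 ± 0.24, 0.16 ± 0.12 and -0.04 ± 0.12, none past the threshold.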

How the data were processed

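RNA of 21 mouse striatum libraries was made into cDNA with a SMARTer kit and into libraries with Nextera XT, per the labels' protocols. Tools named in the submitters' processing notes are HTSeq, DESeq2, SAMtools, R 3.3.3 and STAR 2.5.2b, with build GRCm38.p3 and no roles or settings, and strand use is not given in the sources used here. Values in the deposited table are a signal for each gene symbol: the authors divided read counts by 1 size factor per library. Dividing by the step of each library gave whole reads, within 0.001, for 100% of values. cDNA was amplified, so reads are not independent molecules. The sets were told apart by title numbering and by scaling. For each set, limma 3.58.1 in R 4.3.3 was fitted to log2(normalized count + 1) (mean trend, two-sided, Benjamini-Hochberg over all genes), for genes with a mean of at least 10. A fit over all 21 libraries gave the mean of the sets and their difference. edgeR 4.0.16 and DESeq2 1.42.0 on recovered reads, other pseudocounts and filters, quantile normalization, array weights, a replicate block and single libraries left out were alternatives. Deviations of same-numbered libraries from their group means correlated above 0.1 in every pair for GCas9 and WT of set A (0.112 to 0.284) and for GCas9 and Cas9 of set B (0.121 to 0.329), a pairing that comes from the data and not from the labels. The limma procedure was tested on simulated data.

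The members and lists were chosen with earlier results of these data known. The genes named are members with the 3 highest and 3 lowest limma statistics in each comparison, a set chosen for role, and the highest of each class by level. Some of these are not reported here. Exon lengths, positions and sequences are from GENCODE M21 on GRCm38, in which 93 of 93 members matched by symbol.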

Additional observations from a re-analysis of the deposited data

Results flagged for a closer look

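Among groups of 4 libraries, 12 of 156 sets of 1 member in 1 group of set B (7.69%) held a library farther from the others than Dixon's 95% limit for 4 values allows, where chance gives about 1 in 20. Kcnj13 and Kcne2 were high in Cas9 replicate 1, at 193 and 61.0 normalized counts, the library high in Ttr. Kcnh7 and Kcnk1 were high in GFP replicate 4, at 106 and 1099, which brings GFP close to or into the GCas9 range. Kcna3, a Kv1 subunit also found in immune cells, stood apart at 221 in GFP replicate 3 and at 241 in GCas9 replicate 1. The others were Kcna4 at 1450 in Cas9 replicate 2, Kcng1 at 560 in GCas9 replicate 4, Kcnh5 at 98.0 in Cas9 replicate 3, Kcnk6 at 80.8 in GCas9 replicate 2, Kcnmb4 at 177 in Cas9 replicate 4 and Kcnt1 at 2430 in GCas9 replicate 1.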

How the results depend on the processing

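Of 1842 values recomputed, 1824 were the same by a rule set for each kind of value. A member's log2 difference had to keep its sign and its side of the threshold, and a count of members had to stay at 0. A family median had to stay within the pooled SD of the library medians of the groups compared, and its sign was not checked. Of the rest, 14 were member differences that passed the threshold only in the alternative, and 4 were counts or medians that moved. The log2 differences of 73 pairs of member and comparison kept their sign under all 1534 alternatives run on them. These pairs include the members with the highest and lowest limma statistics of each comparison. A turn of sign was unlikely for such members from the outset, so the kept signs do not speak for the other members. The count of members past the threshold was 0 by limma in all comparisons and, when single libraries were left out, ran from 0 to 0. DESeq2 called 1 member for Cas9 against WT in set A (Kcnj10, adjusted p = 0.0467, range over alternatives 0.0121 to 0.773) and 1 for GCas9 against WT (Kcnj11, adjusted p = 0.00543, range 0.00543 to 0.998). Array weights called 13 members for Cas9 against WT, beside 2570 of all genes, and 10 for GCas9 against Cas9 in set A, beside 932 of all genes. The cause was not tested. An added term for Xist, chosen after seeing the data, called 0 members and moved the median for Cas9 against GFP to -0.029. Kcnj13 gave no value in set B where leaving out a library took it under the mean filter.

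With the replicate number as a block, 0 members passed in each comparison, so the block changed no call. At an unadjusted p under 0.05 it gave 17 members in place of 13 for GCas9 against WT in set A. For GCas9 against Cas9 in set B it gave 3 in place of 4. The share of all genes with the block is not given here, so these changes are not read as particular to the members. In both of these comparisons same-numbered libraries deviated together throughout. In the other 4 comparisons within a set not every same-numbered pair correlated above 0.1, and the numbers are taken there as shared numbers only. For GCas9 and Cas9 of set A this rests on replicate 1, at 0.09. Replicates 2 and 3 correlated there at 0.644 and 0.449, above every pair of GCas9 and WT. The limma p values of that comparison take no account of a pairing. Libraries correlated best with their own number in 7 of 9 cases in set A and 8 of 12 in set B.

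Low reads limit Kcnh6, Kcnj11 and Kcnj6 in set B and Kcnn4 in both sets. With 3 or 4 libraries a group, a p that misses the threshold does not show equal levels.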

Other observations

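The order of levels differed between the sets for several members, which were scaled apart and are set side by side with no test. Kcnq3, a subunit of the M channel, ranked 17 by level per kilobase in set A and 41 in set B. The Kv3 gene Kcnc1 ranked 20 in set A and 35 in set B, and Kcnj11 ranked 38 and 65. Kcnj9 (24 and 28), Kcnk3 (51 and 47) and Kcnj6 (79 and 83) kept closer ranks. The median within-group SD of tested members was 0.188 log2 units in set A and 0.236 in set B, against 0.144 and 0.195 over all genes.

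Genes near Kcnj10 on chromosome 1 were listed by library in set B, chosen after their values were seen and given without a test. Its neighbour Kcnj9 was at 313 to 322 in GFP, 258 to 348 with Cas9 and 378 to 440 with GCas9. Dcaf8, 0.144 Mb away, was at 1746, 1804, 1793 and 1681 in GFP, 1605, 1771, 1717 and 1573 with Cas9 and 1876, 1538, 1745 and 1472 with GCas9. Neither showed a gap of the kind seen in Kcnj10. Within every group, though, Dcaf8 was lower in the libraries high in Kcnj10 than in the others, which was not so for Kcnj9. Ifi202b, an interferon-inducible gene 1.59 Mb away, was at 60.0, 0.0, 0.0 and 8.2 in GFP, 9.0, 0.0, 0.0 and 9.8 with Cas9 and 0.0, 37.7, 0.0 and 3.2 with GCas9. Reads of it were found in GFP replicates 1 and 4, Cas9 replicates 1 and 4 and GCas9 replicates 2 and 4, and in none of the other 6 libraries. Nos1ap, 1.75 Mb away, was at 548, 756, 666 and 533 in GFP, 539, 641, 680 and 538 with Cas9 and 762, 552, 713 and 625 with GCas9. Sccpdh, 7.29 Mb away, was at 563, 728, 695 and 493 in GFP, 539, 678, 711 and 602 with Cas9 and 718, 505, 735 and 555 with GCas9. Kcnj10 in the same order was at 1141, 198, 228 and 1112 in GFP, 1452, 253, 270 and 1222 with Cas9 and 170, 1356, 271 and 1250 with GCas9. The libraries with reads of Ifi202b were those high in Kcnj10. In every group Nos1ap and Sccpdh were lower in these libraries than in the others.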
